A study of Mus musculus with 18 samples.

Results

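The genes described here are 10 genes of the response to fibroblast growth factors (Fgfs) and of the feedback on it in mouse limb buds. They were taken by symbol as Fgfr1, Il17rd, Spry1, Spry2, Spry4, Spred1, Spred2, Dusp6, Etv4 and Etv5. Each of the 10 was listed in all 3 deposited tables, among 13540 genes for the CD1 limbs, 14027 for the e11.0 hindlimbs and 13478 for the e11.5 hindlimbs. RNA sequencing of whole limb buds gave 18 libraries in 6 groups of 3. The groups were CD1 hindlimb at e11.0 (embryonic day), set against CD1 forelimb at e10.5, both of wild type CD1 embryos. The others were hindlimbs of Pitx1 null and of wild type embryos, both labelled as BALB/c, collected at e11.0 and again at e11.5. Pitx1 encodes a homeodomain transcription factor of the hindlimb. The labels do not say which bases the null allele lacks, whether limb buds were pooled, or whether replicates came from separate litters. The p-values therefore speak only of the scatter among these libraries, part of which may be technical.

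Limb outgrowth depends on Fgfs that pass both ways between the apical ectodermal ridge, a thickened strip of surface ectoderm, and the mesenchyme beneath it. An Fgf bound to its receptor and to heparan sulphate activates Ras, Raf, Mek and Erk in turn, and Erk switches on transcription of a set of target genes. Many of these targets dampen the signal that induced them. Fgfr1 is the main Fgf receptor of limb mesenchyme. Il17rd, also called Sef, is a membrane protein that hinders Fgf signalling, Sprouty (Spry) and Spred proteins act on the steps between receptor and Raf, and Dusp6 removes phosphate from Erk. Etv4 and Etv5 are Ets transcription factors induced by Fgf in limb mesenchyme, where they help to keep Shh expression to the posterior margin.

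On the GRCm38 build with GENCODE M21 annotation, all 10 were protein-coding genes. Spred1 (ENSMUSG00000027351) lies on chromosome 2 from 117121374 to 117182279, Spry1 (ENSMUSG00000037211) on chromosome 3 from 37639947 to 37644598 and Fgfr1 (ENSMUSG00000031565) on chromosome 8 from 25513654 to 25575718. Dusp6 (ENSMUSG00000019960) lies on chromosome 10 from 99263231 to 99267489, and Etv5 (ENSMUSG00000013089) on chromosome 16 from 22381309 to 22439719. Spred2 (ENSMUSG00000045671, 19924375 to 20024026) and Etv4 (ENSMUSG00000017724, 101769742 to 101785371) share chromosome 11. Il17rd (ENSMUSG00000040717, 27038941 to 27107286) and Spry2 (ENSMUSG00000022114, 105891947 to 105896819) share chromosome 14. Etv4, Etv5, Spry2 and Spry4 (ENSMUSG00000024427) are on the minus strand and the other 6 on the plus strand.

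Promoter windows of up to 250 bases before the transcript start (RefSeq, GRCm38.p6) were found for 7 of the 10 genes, without Fgfr1, Spry4 and Etv4. They are shown for the 4 of these 7 that were called in null hindlimb at either stage. Dusp6 and Il17rd fell together at e11.0, and Spry1 and Spry2 moved in opposite directions at e11.5. Capitals mark a match to the Ets-family motif AGGAAG in Dusp6 and to the Pitx-type motif TAATCC in Il17rd, each on the minus strand and so printed as its reverse complement.
Dusp6, chr10:99262981-99263230, plus strand: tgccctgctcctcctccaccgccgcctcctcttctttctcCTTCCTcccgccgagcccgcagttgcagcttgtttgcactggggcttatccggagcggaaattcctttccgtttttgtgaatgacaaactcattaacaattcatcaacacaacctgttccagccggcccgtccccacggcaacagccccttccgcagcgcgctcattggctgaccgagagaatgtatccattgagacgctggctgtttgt
Il17rd, chr14:27038751-27038940, plus strand: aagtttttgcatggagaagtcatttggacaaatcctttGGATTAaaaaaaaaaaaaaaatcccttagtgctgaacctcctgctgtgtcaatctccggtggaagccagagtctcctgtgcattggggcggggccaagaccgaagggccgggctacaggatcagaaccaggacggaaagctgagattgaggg
Spry1, chr3:37639697-37639946, plus strand: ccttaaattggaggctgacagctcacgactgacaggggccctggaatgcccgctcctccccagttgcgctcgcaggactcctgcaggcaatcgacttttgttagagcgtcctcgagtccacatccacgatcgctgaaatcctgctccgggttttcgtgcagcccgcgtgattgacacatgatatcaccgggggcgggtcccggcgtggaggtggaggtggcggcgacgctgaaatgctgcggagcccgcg
Spry2, chr14:105896820-105897069, minus strand: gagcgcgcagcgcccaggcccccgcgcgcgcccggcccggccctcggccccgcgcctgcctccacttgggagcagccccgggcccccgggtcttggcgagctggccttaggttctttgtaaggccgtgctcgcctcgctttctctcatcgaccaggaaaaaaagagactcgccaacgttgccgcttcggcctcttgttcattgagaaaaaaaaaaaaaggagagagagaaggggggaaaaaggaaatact
The motifs were chosen after the values of the genes were known, both strands were searched over 250 bases, and no motif overlapped another. AGGAAG was present in 29.5% of 32851 RefSeq promoter windows of this length, TAATCC in 6.25% and the Erk-responsive AP-1 element TGAGTCA in 4.46%. The Dusp6 match lay 210 to 205 bases before the RefSeq start and the Il17rd match 212 to 207 bases before it. Spred2 held AGGAAG at 93 to 88 bases on the plus strand and again at 32 to 27 bases on the minus strand. The windows of Spry1, Spry2, Etv5 and Spred1 held none of the 3 motifs. A match describes the letters only.

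Depth on listed genes (M, 1000000 reads) was 24.5 to 45 M per library in the CD1 table, 17.4 to 44.2 M in the e11.0 table and 30.2 to 53.6 M in the e11.5 table. The targeted gene followed the labels. Pitx1 was at 183 to 223 CPM (read counts per 1000000 reads on listed genes) in CD1 hindlimb and 0.266 to 0.462 CPM in CD1 forelimb. It was at 19.3 to 22.9 CPM in null and 114 to 136 CPM in wild type hindlimbs at e11.0, and at 72.1 to 88.6 CPM in null and 319 to 364 CPM in wild type hindlimbs at e11.5. The titles place replicates 1 and 2 of every group in 1 sequencing run, called the shared run here, and replicate 3 of the Pitx1 groups in other runs, 1 at e11.0 and a different one at e11.5, while for CD1 replicate 3 no run is named. Libraries of e10.5 and e11.0 were made by ribosomal RNA depletion and those of e11.5 by mRNA enrichment, with replicate 3 at e11.5 unstranded. Replicate 3 stood apart in many of the 10 genes. Fgfr1 differed between replicate 3 and the mean of replicates 1 and 2 by -1.04 on the log2 scale in CD1 hindlimb and by -0.91 in CD1 forelimb, and Spry4 by 0.76 in null and 0.91 in wild type hindlimb at e11.0. Each comparison was therefore fitted with limma on log2(CPM + 1) with a term that sets replicate 3 apart from the shared run. It is called the run term here, also for CD1, where the run of replicate 3 is not known. A gene was called at an adjusted p under 0.05 over all listed genes. Without the run term none of the 10 genes was called in any comparison. Replicate 3 is 1 library per group, so only the shared run could be tested by itself. With 1 replicate 3 left out, its partner is alone outside the shared run and the run term absorbs it. The 2 such fits of a comparison thus gave the same differences as each other and as the shared run alone. They are counted as separate fits below but are not separate checks. For the change between stages, the 2 such fits of a stage also gave equal values.

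**Figure D1:**
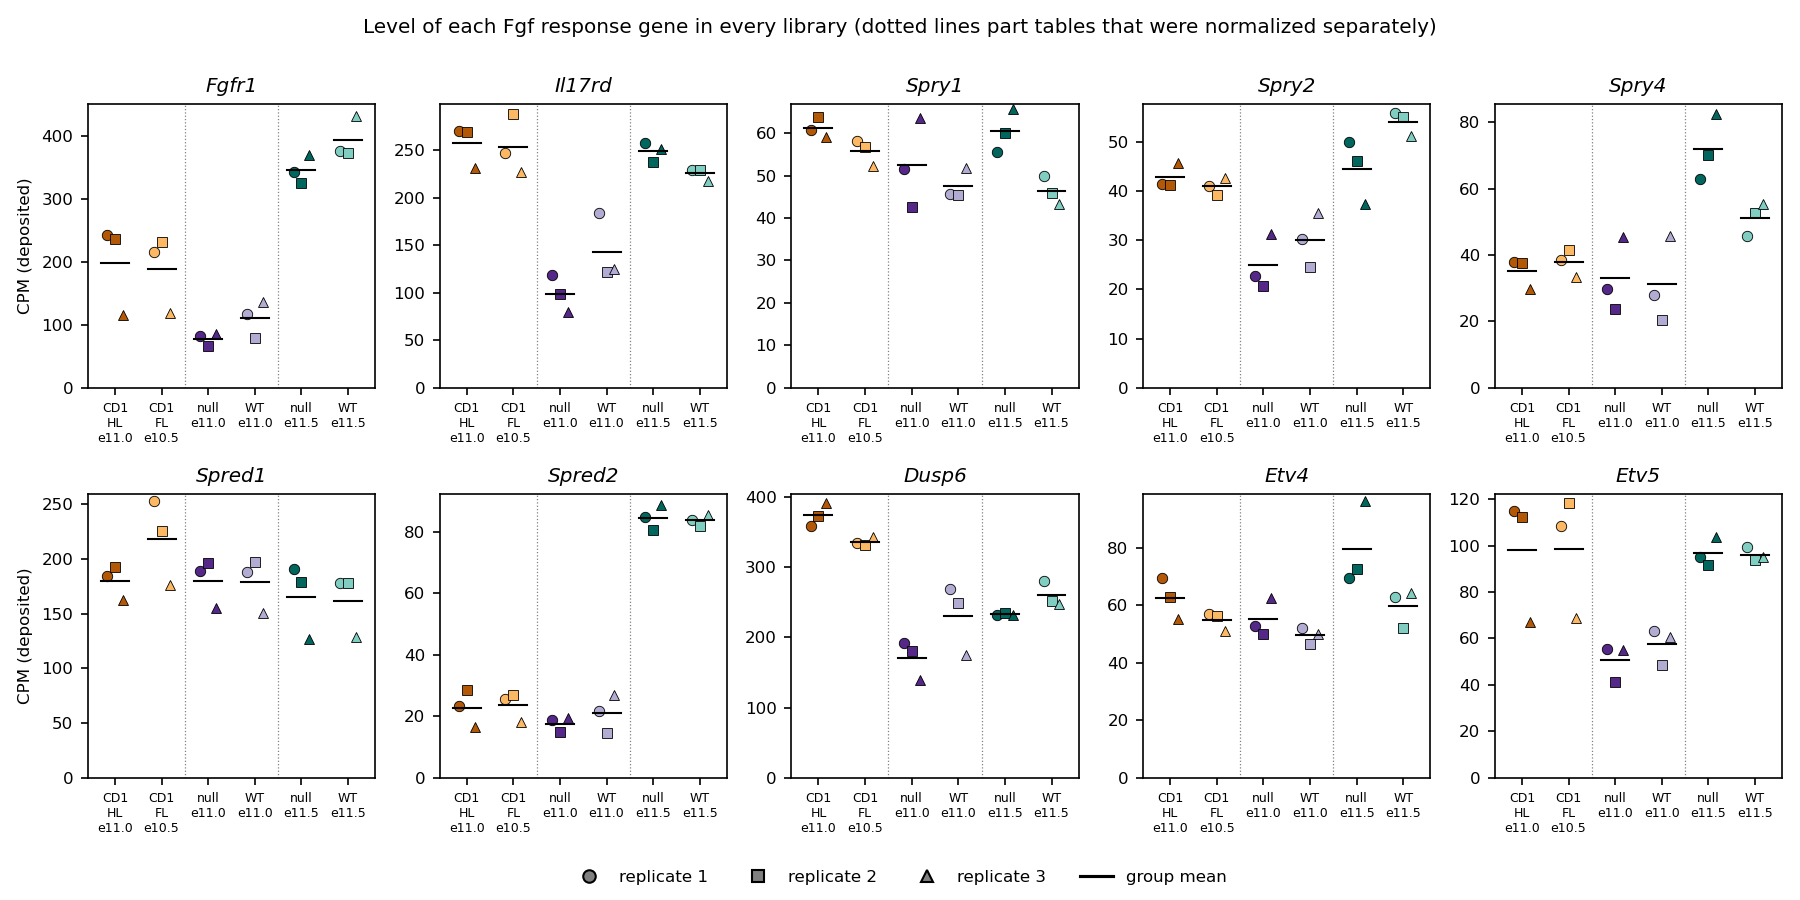
Deposited CPM (y axis, from 0) of each of the 10 genes in every library, by group (x axis: HL hindlimb, FL forelimb, null and WT Pitx1 genotypes). Circles, squares and triangles are replicates 1, 2 and 3, black lines are group means, and dotted lines part tables that were normalized separately; Spry4, Etv4 and Spry1 stand higher in all 3 null than in all 3 wild type libraries at e11.5.

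Per kilobase of exon, Dusp6 was the most abundant of the 10 transcripts in each of the 6 groups. The length was that of all annotated exons of a gene merged, 9875 bases for Fgfr1 and 10985 for Il17rd. It can exceed that of the transcript present, and the order of the genes depends on it. The level of Dusp6 averaged 120 CPM per kilobase in CD1 hindlimb and 107 in CD1 forelimb. It averaged 54.5 in null and 73.6 in wild type at e11.0, and 74.3 in null and 83.1 in wild type at e11.5. Its range did not overlap that of the next gene in any group. Spred1 came second in the CD1 and e11.0 groups, at 26.5 CPM per kilobase in CD1 hindlimb, 32.2 in CD1 forelimb, 26.5 in null and 26.3 in wild type e11.0 hindlimb. In CD1 its range overlapped that of Etv5 next below, and at e11.0 it stood clear of Spry1, the third. Fgfr1 came second at e11.5, at 35.0 CPM per kilobase in null and 39.8 in wild type, with no overlap with the third gene. It was seventh or eighth in the other 4 groups. Most genes in the middle of the order overlapped their neighbours. Spred2 was lowest in the CD1 and e11.0 groups, at 3.81 to 5.11 CPM per kilobase on average, and Spry4 was lowest at e11.5, at 15.1 in null and 10.8 in wild type. The e11.5 table differs from the others in stage, library kind and normalization, so orders across tables are set side by side only.

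The CD1 comparison asked how hindlimb buds differ from forelimb buds of a like form. Every hindlimb was at e11.0 and every forelimb at e10.5, so limb type and age cannot be told apart. Of the 10 genes, 1 passed the test, lower in hindlimb, where 5.87% of all listed genes passed (2.41% higher and 3.46% lower). Spred1, an inhibitor of Raf activation by Ras, had 185, 193 and 162 CPM in hindlimb and 253, 225 and 176 CPM in forelimb (replicates 1, 2 and 3). Each hindlimb library was below the forelimb library of the same number, although the groups overlapped. Spred1 averaged 180 ± 16.0 CPM in hindlimb and 218 ± 39.1 CPM in forelimb (SD, n = 3 each), a log2 difference of -0.27 ± 0.06 SE (limma adjusted p = 0.0353). The call held within the shared run alone (-0.34), but with the replicate number as a block the adjusted p was 0.0633. The call was also lost without forelimb replicate 2 (adjusted p = 0.0609), hindlimb replicate 1 (0.185) or hindlimb replicate 2 (0.141).

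Dusp6 and Spry1 had hindlimb and forelimb libraries that did not overlap, as did 11.2% of listed genes, but neither passed the test. Dusp6 had 359, 373 and 392 CPM in hindlimb and 335, 331 and 343 CPM in forelimb (log2 difference 0.15 ± 0.04 SE, limma adjusted p = 0.0729). All 3 hindlimb values stood above all 3 forelimb values. Spry1 had 60.7, 63.7 and 59.0 CPM in hindlimb and 58.0, 56.7 and 52.3 CPM in forelimb (0.13 ± 0.05, adjusted p = 0.144). Etv4 had 69.5, 62.9 and 55.1 CPM in hindlimb and 57.0, 56.4 and 51.0 CPM in forelimb (0.18 ± 0.05, adjusted p = 0.0883), and the authors' deposited table gives it an adjusted p of 0.0353. Replicate 3 was lowest in both groups, and the ranges overlapped. The other 6 genes had log2 differences of -0.10 to 0.06 and adjusted p of 0.307 to 0.925. For Fgfr1 the libraries held 242, 236 and 115 CPM in hindlimb and 216, 232 and 119 CPM in forelimb, so the gap between runs was far wider than that between limbs. The median log2 difference of the 10 genes was 0.03, and that of all listed genes was 0.01.

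Among the rest of the pathway, the ligand Fgf2 (log2 difference -0.89 ± 0.12 SE, limma adjusted p = 0.00235) and Fgf10, the mesenchymal ligand that signals to the ridge (-0.39 ± 0.08, 0.0157), were lower in CD1 hindlimb, 2 of 8 listed ligands. Of 6 receptors and co-receptors 3 were lower, namely Flrt2 (-0.64), a membrane partner of Fgf receptors, Cdh2 (-0.40), the adhesion protein N-cadherin, and Fgfr2 (-0.25), the ectodermal receptor of Fgf10. Fgf8, the chief ridge Fgf, and Fgfr3 did not pass (0.25, adjusted p = 0.143, and 0.02). None of 12 receptor adaptors and none of 12 genes of the Ras, Raf, Mek and Erk cascade passed. The shares over all listed genes, against which each count here is to be read, were 2.41% higher and 3.46% lower. Of 19 other inhibitors, Dusp4 (-0.39) and Errfi1 (-0.32) were lower. Of 13 other Ets factors, Erg (-0.36), also an endothelial marker, and Ets2 (-0.29) were lower, and of 11 immediate early genes Mycn (-0.28) was lower. Of 19 heparan sulphate enzymes and core proteins 3 were lower, Hs3st3b1 (-0.77), Hs3st1 (-0.49, adjusted p with the replicate block 0.0562) and Gpc6 (-0.21, 0.0662), and Sdc2 was higher (0.31). With 1 library left out, the calls of Fgf2, Flrt2, Cdh2, Dusp4, Errfi1, Ets2 and Hs3st3b1 were kept in all 6 fits, those of Fgf10, Fgfr2 and Erg in 3, that of Mycn in 2, and those of Hs3st1, Gpc6 and Sdc2 in 1.

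**Figure D2:**
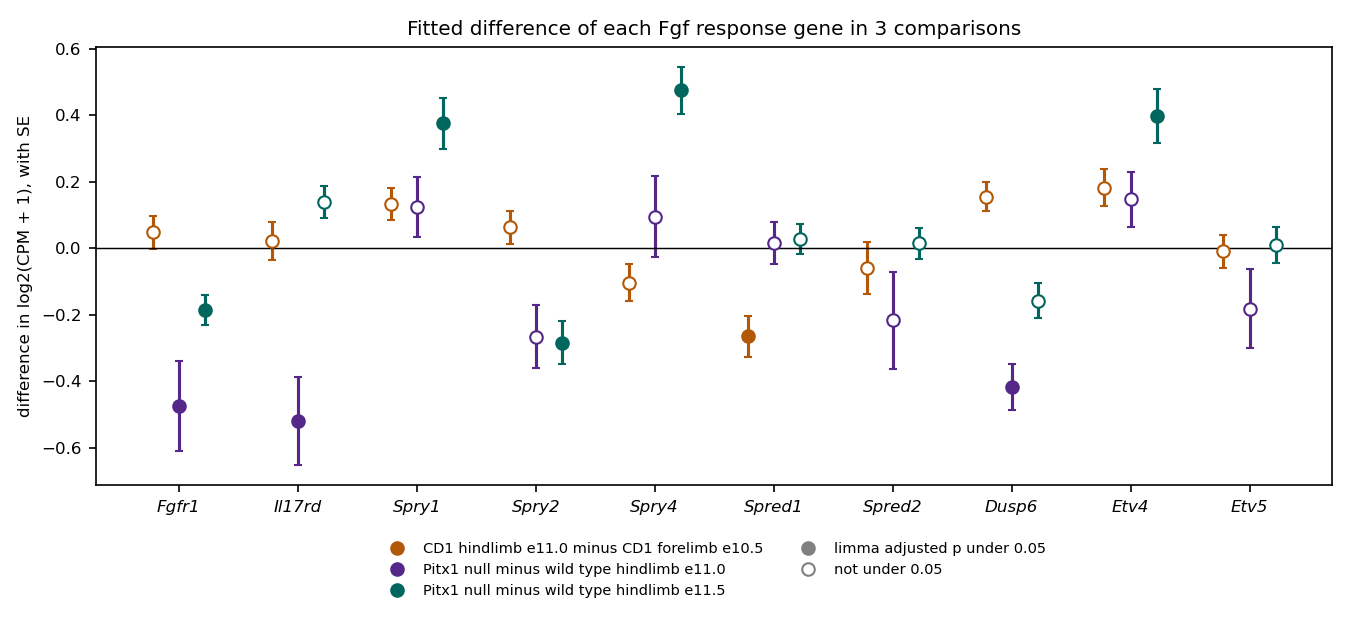
Fitted difference in log2(CPM + 1) with its SE (y axis) for each of the 10 genes (x axis) in the CD1 comparison and in null minus wild type hindlimb at e11.0 and e11.5. Filled points had a limma adjusted p under 0.05: Spred1 in CD1, Fgfr1, Il17rd and Dusp6 at e11.0, and Fgfr1, Spry1, Spry2, Spry4 and Etv4 at e11.5.

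In null hindlimb at e11.0, 3 of the 10 genes fell relative to wild type and none rose, where 13.1% of all listed genes passed the test (4.73% higher and 8.41% lower). They were the receptor Fgfr1, the membrane inhibitor Il17rd and the Erk phosphatase Dusp6. The median log2 difference of the 10 genes was -0.20, and that of all listed genes was -0.07. At this stage 664 genes passed as higher and 1179 as lower, while TMM scaling gave 1067 and 516, median-ratio scaling 1326 and 403, and upper-quartile scaling 984 and 567.

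Dusp6 had 193, 180.2 and 139.7 CPM in null hindlimbs and 268, 249 and 174 CPM in wild type hindlimbs. Each null library was below the wild type library of its number, and the ranges overlapped, with wild type replicate 3 below null replicates 1 and 2. Dusp6 averaged 171 ± 27.7 CPM in null and 230.5 ± 49.4 CPM in wild type (SD, n = 3 each), a log2 difference of -0.42 ± 0.07 SE (limma adjusted p = 0.00852). It kept its call under each of the 3 scalings and within the shared run. The call was lost without wild type replicate 1 (adjusted p = 0.0631) or null replicate 2 (0.0688).

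Il17rd had 119, 98.6 and 79.4 CPM in null hindlimbs and 183, 121 and 125 CPM in wild type hindlimbs. It was the single gene of the 10 whose null and wild type libraries did not overlap, against 18.5% of listed genes. Its mean was 98.9 ± 19.6 CPM in null and 143 ± 34.9 CPM in wild type (SD, n = 3 each), a log2 difference of -0.52 ± 0.13 SE (limma adjusted p = 0.033). Within the shared run the difference was -0.46 (adjusted p = 0.163), and with median-ratio scaling it was -0.42 (0.0524). The call was lost without wild type replicate 1 (adjusted p = 0.17), wild type replicate 3 (0.165), null replicate 2 (0.122) or null replicate 3 (0.167).

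Fgfr1 had 81.7, 66.1 and 85.9 CPM in null hindlimbs and 117, 78.6 and 136 CPM in wild type hindlimbs. The lowest wild type library, replicate 2, lay below the null replicates 1 and 3. Fgfr1 averaged 77.9 ± 10.47 CPM in null and 111 ± 29.3 CPM in wild type (SD, n = 3 each), a log2 difference of -0.47 ± 0.14 SE (limma adjusted p = 0.0449). Within the shared run it was -0.38 (adjusted p = 0.216), and the adjusted p was 0.0655 with TMM, 0.0816 with median-ratio and 0.0524 with upper-quartile scaling. The call was lost without wild type replicate 1 (adjusted p = 0.218), wild type replicate 3 (0.218), null replicate 2 (0.158) or null replicate 3 (0.219).

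Wild type replicate 2 at e11.0 stood below wild type replicate 1 of the same run by 0.59 on the log2 scale for Il17rd, 0.57 for Fgfr1 and 0.55 for Spred2. Without it, 5 of the 10 genes were called lower in null hindlimb, where 25.1% of all listed genes were called lower in the same fit, with log2 differences of -0.71 for Il17rd, -0.66 for Fgfr1 and -0.44 for Dusp6, joined by Spred2 and Spry2.

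Spry2, which blocks signalling between receptor and Ras, had 22.7, 20.7 and 31.3 CPM in null and 30.2, 24.5 and 35.5 CPM in wild type hindlimbs at e11.0. All 3 same-numbered differences were negative, and the fitted one was -0.27 ± 0.10 SE (limma adjusted p = 0.0811). With the replicate number as a block, Spry2 had an adjusted p of 0.0325 and 4 of the 10 genes were called lower in place of 3, where 17% of all listed genes were called lower in place of 8.41%. Etv5 (-0.18 ± 0.12, adjusted p = 0.292) was also lower in each null library than in its numbered partner, at 55.4, 41.4 and 55.1 CPM against 63.1, 48.5 and 60.6 CPM. Spred2 had 18.7, 14.7 and 19.4 CPM in null and 21.8, 14.6 and 27.0 CPM in wild type (-0.22 ± 0.15, 0.306). In replicate 2 the null and wild type levels of Spred2 were nearly equal.

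The other Sprouty genes and Etv4 had small positive differences at e11.0 that did not pass. Spry1 had 51.5, 42.6 and 63.5 CPM in null and 45.6, 45.3 and 51.7 CPM in wild type (0.12 ± 0.09, limma adjusted p = 0.34). Spry4 had 29.7, 23.7 and 45.5 CPM in null and 28.0, 20.4 and 45.8 CPM in wild type (0.09 ± 0.12, 0.6). Etv4 had 52.9, 50.1 and 62.6 CPM in null and 52.1, 46.5 and 50.03 CPM in wild type (0.15 ± 0.08, 0.225). In each of these genes the null and wild type ranges overlapped. Spred1 was at 189, 196 and 155 CPM in null and 188, 197 and 150.2 CPM in wild type hindlimb, a log2 difference of 0.01 ± 0.06 SE.

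Elsewhere in the pathway at e11.0, no listed ligand of 10 passed. The shares over all listed genes, against which each count here is to be read, were 4.73% higher and 8.41% lower. Fgf8 was at 0.25 ± 0.09 SE (limma adjusted p = 0.0748, and 0.0381 with the replicate block) and Fgf10 at 0.21 ± 0.12 (0.208). Of 7 receptors and co-receptors Fgfrl1, a receptor without a kinase, fell (-0.40 ± 0.10, 0.0283), and Fgfr2 (0.07) and Fgfr3 (-0.09) did not pass. Of 12 adaptors Plcg1 fell (-0.40) and of 19 other inhibitors Nf1, which turns Ras off, fell (-0.28). Of 13 other Ets factors 4 fell, Ets1 (-0.64), Elk3 (-0.47), Fli1 (-0.30) and Elf2 (-0.22), and Ets1, Elk3 and Fli1 are known in endothelium. Of 19 heparan sulphate genes 4 fell, Hs3st3b1 (-0.65), Sulf2 (-0.39), Gpc3 (-0.29) and Ext1 (-0.24), and none of 11 immediate early genes passed. Each of these e11.0 calls was lost in some of the 6 fits with 1 library left out: those of Ets1 and Hs3st3b1 were kept in 3 fits, those of Plcg1, Elk3 and Sulf2 in 2, and those of Fgfrl1, Nf1, Fli1, Elf2, Gpc3 and Ext1 in 1.

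These are whole buds, in which fewer cells of a type and less RNA per cell cannot be told apart, and markers of several cell types moved with genotype at e11.0. Of 10 limb mesenchyme markers 6 were lower in null hindlimb, and their summed level was 813 to 1176 CPM in null and 1112 to 1516 CPM in wild type. Of 12 endothelial markers 9 were lower (summed 125 to 229.7 CPM in null and 215 to 303 CPM in wild type), as were 4 of 5 listed muscle precursor markers (91.5 to 98.4 and 118 to 130.4 CPM), with Msc, Myod1 and Pax7 not listed. Of 14 markers of surface ectoderm and ridge 7 were higher, with a summed level of 492 to 1118 CPM in null and 372 to 911 CPM in wild type. Of 12 erythroid markers 1 was higher (6218 to 17938 CPM in null and 4930 to 11376 CPM in wild type), none of 7 macrophage markers passed, and 1 of 5 nerve markers was higher. Of all listed genes, 4.73% were higher and 8.41% lower. With 1 library left out, Krt5, Krt8, Epcam, Cdh1, Cldn6 and Esrp1 of the ectoderm list passed in 1 of 6 fits and Krt18 in 2. Of the endothelial list Cldn5 and Esam passed in 1, Cdh5 and Flt1 in 2 and Kdr in 3. The mesenchyme markers Grem1, Hand2 and Lhx9 passed in 2, 3 and 6, and the muscle marker Lbx1 in 3. For the other called markers of these lists such fits are not given here, so this is a check of part of them only. No listed marker was at 0 in any library. Their part in the results on the 10 genes was not tested.

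**Figure D3:**
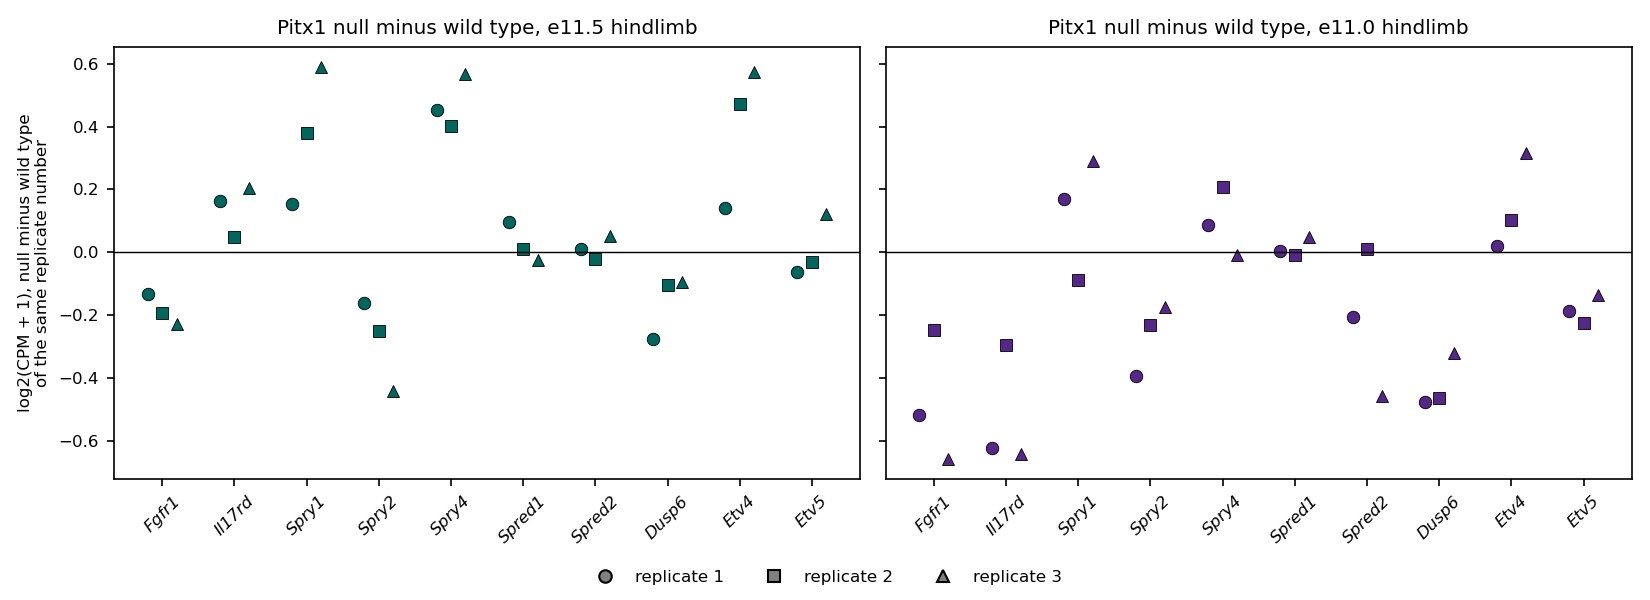
Difference in log2(CPM + 1) between the null and the wild type library of the same replicate number (y axis) for each of the 10 genes (x axis), at e11.5 on the left and at e11.0 on the right. Il17rd is above 0 in all 3 pairs at e11.5 and below 0 in all 3 at e11.0, and Spry2, Fgfr1 and Dusp6 are below 0 in all pairs at both stages.

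In null hindlimb at e11.5, 5 of the 10 genes passed the test, where 10.8% of all listed genes did (2.83% higher and 7.96% lower). The Sprouty genes Spry4 and Spry1 and the transcription factor Etv4 rose, and Spry2 and the receptor Fgfr1 fell. Null and wild type libraries did not overlap for 7 of the 10, the 5 called genes with Il17rd and Dusp6, against 16.5% of listed genes. The median log2 difference of the 10 was 0.02, and that of all listed genes was -0.02. At this stage 382 genes passed as higher and 1073 as lower. Upper-quartile scaling gave 417 and 1082, TMM scaling 650 and 925, and median-ratio scaling 743 and 919.

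Spry4 had 63.1, 70.0 and 82.4 CPM in null hindlimbs and 45.8, 52.7 and 55.3 CPM in wild type hindlimbs. The lowest null library was above the highest wild type library. Spry4 averaged 71.9 ± 9.82 CPM in null and 51.3 ± 4.95 CPM in wild type (SD, n = 3 each), a log2 difference of 0.47 ± 0.07 SE (limma adjusted p = 0.00491). The call held within the shared run alone (0.43) and with any 1 of the 6 libraries left out, at differences of 0.43 to 0.55.

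Etv4 had 69.6, 72.8 and 96.3 CPM in null hindlimbs and 63.0, 52.2 and 64.3 CPM in wild type hindlimbs. The groups did not overlap, and the gap was smallest in replicate 1. Etv4 averaged 79.6 ± 14.6 CPM in null and 59.8 ± 6.60 CPM in wild type (SD, n = 3 each), a log2 difference of 0.40 ± 0.08 SE (limma adjusted p = 0.0181). The shared run alone gave 0.31 (adjusted p = 0.0986). The call was lost without wild type replicate 2 (adjusted p = 0.0517), wild type replicate 3 (0.100), null replicate 2 (0.0866) or null replicate 3 (0.103).

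Spry1 had 55.7, 60.1 and 65.7 CPM in null hindlimbs and 49.97, 45.9 and 43.3 CPM in wild type hindlimbs. Again the groups did not overlap, and replicate 1 showed the narrowest gap. Spry1 averaged 60.5 ± 5.03 CPM in null and 46.4 ± 3.37 CPM in wild type (SD, n = 3 each), a log2 difference of 0.37 ± 0.08 SE (limma adjusted p = 0.0177). In the shared run it was 0.27 (adjusted p = 0.0881). The call was lost without wild type replicate 3 (adjusted p = 0.0887), null replicate 2 (0.0885) or null replicate 3 (0.0938).

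Spry2 went the other way, with 49.9, 46.1 and 37.3 CPM in null hindlimbs and 55.9, 55.1 and 51.1 CPM in wild type hindlimbs. Each null value was below each wild type value. Spry2 averaged 44.4 ± 6.44 CPM in null and 54.0 ± 2.59 CPM in wild type (SD, n = 3 each), a log2 difference of -0.28 ± 0.06 SE (limma adjusted p = 0.0263). The shared run alone gave -0.21 (adjusted p = 0.162). The call was lost without wild type replicate 1 (adjusted p = 0.0582), wild type replicate 3 (0.171), null replicate 2 (0.112) or null replicate 3 (0.166).

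Fgfr1 had 343, 325 and 369 CPM in null hindlimbs and 376, 372 and 432 CPM in wild type hindlimbs. The highest null library lay just under the lowest wild type library. Fgfr1 averaged 346 ± 22.0 CPM in null and 393 ± 33.7 CPM in wild type (SD, n = 3 each), a log2 difference of -0.19 ± 0.04 SE (limma adjusted p = 0.0334). Within the shared run it was -0.16 (adjusted p = 0.194), and the adjusted p was 0.0579 with TMM scaling, 0.0659 with median-ratio scaling and 0.081 in the authors' deposited table. The call held only without null replicate 1. Without wild type replicates 1, 2 or 3 the adjusted p was 0.0852, 0.0929 or 0.194, and without null replicates 2 or 3 it was 0.131 or 0.196.

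Of the genes not called at e11.5, Il17rd had 257, 237 and 251 CPM in null and 229, 229 and 218 CPM in wild type hindlimbs (log2 difference 0.14 ± 0.05 SE, limma adjusted p = 0.0967). Dusp6 had 232, 234 and 232 CPM in null and 281, 252 and 248 CPM in wild type (-0.16 ± 0.05, adjusted p = 0.087). In both genes the null and wild type libraries did not overlap, but neither gene passed the test. Spred1 (190.3, 179 and 127 CPM in null and 178, 178 and 129 CPM in wild type), Spred2 (84.8, 80.7 and 88.7 CPM in null and 84.1, 82.0 and 85.5 CPM in wild type) and Etv5 (95.1, 91.6 and 104 CPM in null and 99.4, 93.6 and 95.0 CPM in wild type) differed by 0.03, 0.01 and 0.01 on the log2 scale, each with an SE of 0.05. Etv4 was called and Etv5 was not, and Spry2 opposite in sign to Spry1 and Spry4; these differences between genes were not tested.

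Ligands and receptors also differed at e11.5, where 2.83% of all listed genes were higher and 7.96% lower. Fgf10 rose in null hindlimb, at 48.8, 47.6 and 39.7 CPM in null and 33.4, 31.3 and 21.8 CPM in wild type (log2 difference 0.65 ± 0.07 SE, limma adjusted p = 0.00123). Fgf18 fell (-1.18 ± 0.17, 0.00491), with 6.15, 5.53 and 1.42 CPM in null and 10.6, 12.4 and 7.51 CPM in wild type, and so did Fgf9 (-0.71 ± 0.14, 0.0147). The groups of Fgf10 and of Fgf18 did not overlap, and both calls held with any 1 library left out, while that of Fgf9 held in 3 of 6 such fits. Fgf8 had 30.4, 40.8 and 49.3 CPM in null and 30.6, 22.2 and 34.0 CPM in wild type (0.45 ± 0.13, 0.0559), with overlapping groups. Of 8 receptors and co-receptors, Fgfr4 fell (-1.03 ± 0.11, 0.00123), at 1.95, 1.43 and 1.57 CPM in null and 3.97, 4.42 and 4.76 CPM in wild type, and so did Fgfrl1 (-0.22). Fgfr2 (0.00) and Fgfr3 (-0.18, 0.462) did not pass.

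Within the cell, the adaptors Gab1 (-0.37) and Gab2 (-0.28) fell, 2 of 12, and none of 12 cascade genes passed at e11.5. The shares over all listed genes, against which each count here is to be read, were 2.83% higher and 7.96% lower. Of 19 other inhibitors, the Erk phosphatase Dusp9 rose (0.45 ± 0.08, limma adjusted p = 0.00937) and Spred3 fell (-0.33). Of 13 other Ets factors Elf1 (-0.31) and Fli1 (-0.27, adjusted p 0.0451 and 0.055 with the replicate block) fell. Of 10 immediate early genes Junb (0.43) and Ier2 (0.26) rose and Jun fell (-0.58). Of 19 heparan sulphate genes 5 fell and none rose, led by Hs3st3b1 (-0.77), Sulf1 (-0.49), which trims sulphate from the chains, Hs6st2 (-0.35) and Gpc3 (-0.26). With 1 library left out, the calls of Fgfr4, Jun, Hs3st3b1, Sulf1 and Hs6st2 were kept in all 6 fits and that of Dusp9 in 5. Gab1 kept its call in 4 of the 6, Gpc3 in 3, Junb, Ier2 and Spred3 in 2, and Gab2, Elf1, Fli1 and Fgfrl1 in 1.

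**Figure D4:**
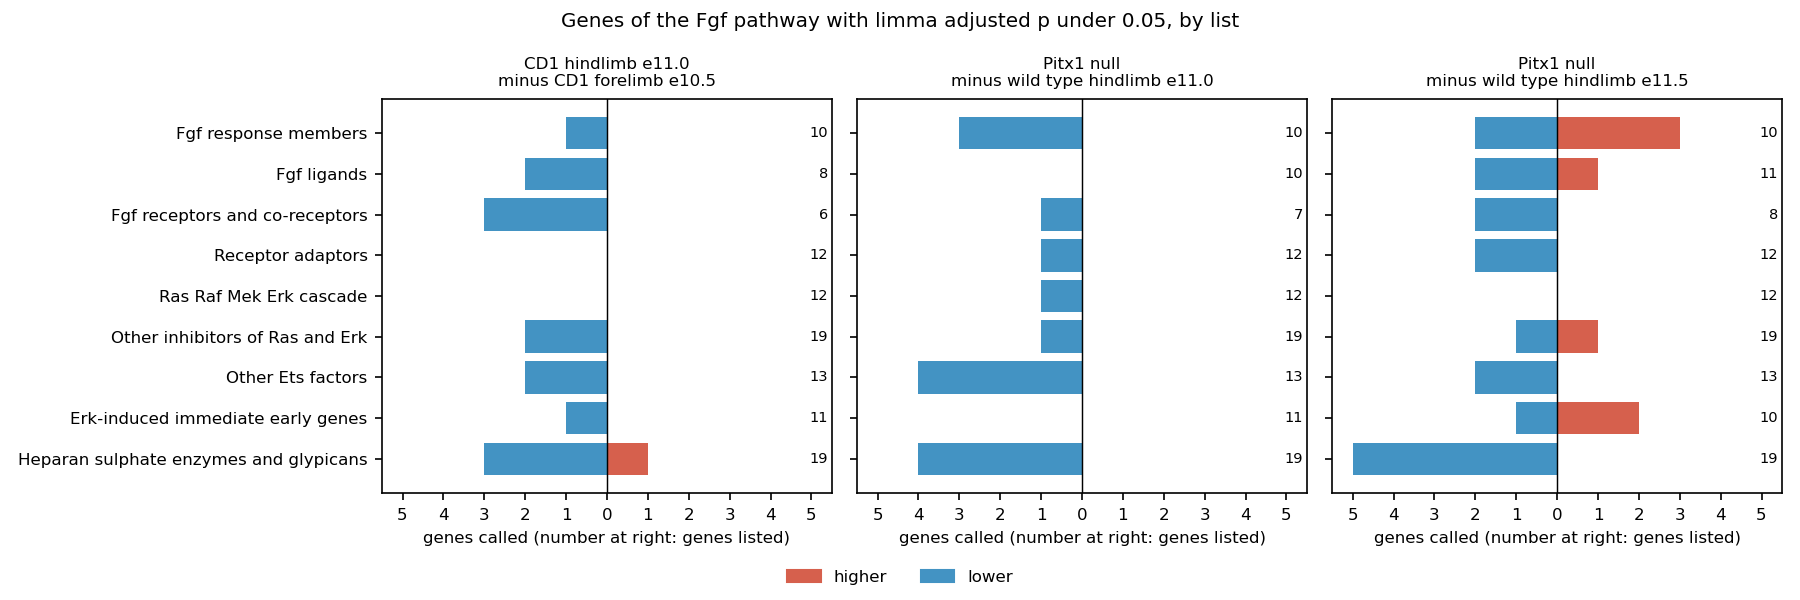
Number of genes with a limma adjusted p under 0.05 (x axis; higher to the right, lower to the left) in each Fgf pathway list (y axis), for the 3 comparisons. The number at the right of each row counts the genes of the list present in that table. The 10 genes described here had 1 call in CD1, 3 at e11.0 and 5 at e11.5, and Fgf ligands had 2, 0 and 3. Of all listed genes, 5.87%, 13.1% and 10.8% were called.

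Cell type markers moved with genotype at e11.5 as well, where 2.83% of all listed genes were higher and 7.96% lower. All 8 muscle precursor markers were lower in null hindlimb, with a summed level of 116 to 148 CPM in null and 192 to 226 CPM in wild type. Fgfr4, which is known in muscle precursors, is not on that list. Of 14 ectoderm and ridge markers 3 were higher (391 to 503 CPM in null and 356 to 399.6 CPM in wild type), of 12 endothelial markers 2 were lower (403 to 457.2 and 457.2 to 494 CPM), and of 10 mesenchyme markers 4 were higher and 1 lower (1809 to 2331 and 1838 to 2279 CPM). None of 12 erythroid markers passed, 2 of 9 macrophage markers and 1 of 6 nerve markers were lower. In CD1 hindlimb, 3 of 6 muscle markers were lower and 1 higher (119 to 156 CPM in hindlimb and 136 to 179 CPM in forelimb), and 4 of 12 erythroid markers were higher (3919 to 5200.4 CPM in hindlimb and 3834 to 3940 CPM in forelimb). There, 3 of 10 mesenchyme markers were lower and 2 higher (1384 to 1755 CPM in hindlimb and 1431 to 1905 CPM in forelimb), 1 of 13 ectoderm and 1 of 12 endothelial markers were lower, and no macrophage or nerve marker passed. With 1 library left out at e11.5, Lhx2 and Grem1 passed in all 6 fits, Erbb3 in 4 and Lbx1 in 3. Cldn6 passed in 2, and Epcam, Esrp1, Cdh5, C1qa and Csf1r in 1. For the other called markers at e11.5, among them all muscle markers but Lbx1, such fits are not given here. In CD1, where 5.87% of all listed genes passed, Lbx1, Hand2, Lhx9, Hba-a1, Hbb-bs and Hbb-bt passed in all 6. There Grem1 passed in 5, and Erg, Hba-x and Hbb-y in 3. With all CD1 libraries only 4 of 12 erythroid markers passed, so not every erythroid gene named here was called in that fit. For the other called CD1 markers such fits are not given here. The part of these marker shifts in the results on the 10 genes was not tested.

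Whether the genotype difference itself changed between stages was asked of the 12935 genes listed in both null tables, of which 0.363% passed (0.17% with a positive and 0.193% with a negative value). None of the 10 genes passed with limma, and 3 had an unadjusted p under 0.05, as did 20.6% of all tested genes. The median change of the difference, e11.5 minus e11.0, was 0.25 on the log2 scale for the 10 genes and 0.05 for all tested genes. Stage and library kind (mRNA enrichment at e11.5, ribosomal depletion at e11.0) cannot be told apart here. Il17rd gave the highest value, 0.66 ± 0.17 SE (unadjusted p = 0.00146, limma adjusted p = 0.105), with same-numbered differences of 0.16, 0.05 and 0.20 at e11.5, against -0.62, -0.29 and -0.64 at e11.0. With the replicate number as a block, Il17rd passed as 1 of 10, where 1.07% of tested genes passed with a positive value. The other 9 genes had values of -0.02 to 0.38, with Spry4 at 0.38 ± 0.16 (adjusted p = 0.203), Dusp6 at 0.26 ± 0.09 (0.156) and Spry2 at -0.02 ± 0.12 (0.941). Without wild type e11.0 replicate 2, 5 of the 10 passed with a positive value, namely Dusp6, Fgfr1, Il17rd, Spred2 and Spry4, as did 14.4% of all tested genes, and in the other 11 fits with 1 library left out none of the 10 passed. With all libraries, Hs6st2, a heparan sulphate sulphotransferase, was the 1 gene of the other pathway lists that passed, at -0.55 ± 0.10 (limma adjusted p = 0.0394), a call kept in 1 of 12 fits with 1 library left out. Among markers, 5 of 10 mesenchyme genes passed with a positive value and 1 of 5 nerve genes with a negative one. With 1 library left out, the mesenchyme genes Lhx9, Grem1 and Lhx2 passed in 12, 11 and 3 of 12 fits. For Msx1 and Prrx2, which also passed with all libraries, such fits are not given here. The nerve gene Erbb3 passed in 1. The part of these markers in the values above was not tested.

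Across the 18 libraries, after the mean of each table and run set was removed, the 10 genes did not vary as 1 block. Of their 45 pairs, 16 had a Pearson r above 0.5 and 19 an r below 0, with a median of 0.14. The libraries differ in depth and composition and hold the group differences above. Gaps between replicates 1 and 2 of a group also enter, such as those of Il17rd, Fgfr1 and Spred2 in wild type hindlimb at e11.0. The values of r therefore describe only this set. Spry1 and Etv4 were most alike (r = 0.904), followed by Fgfr1 and Il17rd (0.859) and Etv5 and Il17rd (0.82). The lowest values joined Spry2 with Spry1 (-0.57), Etv4 (-0.523) and Spry4 (-0.466). Of 10165 genes with a mean of at least 5 CPM in each table, those most like Dusp6 in the same measure were Mapk11 (r = 0.951), Gldc (0.947), Zfp219 (0.927), Ctnnbip1 (0.926) and Gtf2ird2 (0.925). Those most like the mean of the 10 genes were Tmem201 (0.95), Fbxl19 (0.945), Sbno2 (0.944), Agpat1 (0.942) and Gga3 (0.937).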

How the data were processed

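The authors deposited 3 tables, 1 per comparison, with each library's expression as CPM (per the file headers), with their edgeR log2 fold change and average log2 CPM, a likelihood-ratio score, and a p-value with its adjusted value. Per the submitters' processing notes, reads were aligned with STAR to GRCm38 (mm10) and counted with featureCounts; versions and strand settings are not given in the sources used here. Reads of overlapping or antisense genes cannot be told apart. The CPM columns each sum to 1000000, and all genes of a table reached over 0.5 CPM in 3 or more of its libraries; less abundant genes are not covered. Divided by a step fitted to the low values of its library, every value (100%) came to a whole read count to within 0.01 read, and these reads were used for depth and for an edgeR 4.0.16 quasi-likelihood test, which called 1 of the 10 genes in CD1, 3 at e11.0 and 5 at e11.5, among 832, 2091 and 1506 genes in all. The depth ranges given run from the lowest to the highest library of each table.

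The tables were fitted separately in limma 3.58.1 (R 4.3.3). The values were log2(CPM + 1), the variance prior followed the mean, and the terms were group and run, leaving 3 residual degrees of freedom (6 for the change between stages). The two-sided p-values were adjusted by Benjamini-Hochberg over the whole table. A fold change on this scale understates the change of low genes. Same-numbered libraries of compared groups deviated together from the means of their 3 libraries. The correlations were 0.686, 0.798 and 0.939 for replicates 1, 2 and 3 of CD1. They were 0.662, 0.637 and 0.855 in the e11.0 table, and 0.733, 0.83 and 0.914 in the e11.5 table. The gap between replicate 3 and the shared run is part of these deviations, so the correlations cannot show whether libraries were paired. A fit with the replicate block was run as an alternative, with the numbers taken from the labels. Gene names matched GENCODE M21 for 13519, 14004 and 13463 identifiers. The fits were also run on simulated data with 1 scatter setting for all genes and no shift of a library within its run. That is unlike these libraries, and no result here rests on it. The 10 genes, the pathway and marker lists and the tests were chosen with earlier results of these data known. All 10 genes are named; of each pathway list at most 4 called genes are, by absolute fold change, with Fgfr2, Fgfr3, Fgf8 and Fgf10 always given; 1 result at e11.0 is not reported here. Alternatives covered the run term, the block, pseudocounts, a filter on low values, scalings, the prior, the tool, and each library left out.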

Additional observations from a re-analysis of the deposited data

Results flagged for a closer look

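Il17rd was singled out because all 3 same-numbered null minus wild type differences were positive at e11.5 (0.16, 0.05 and 0.20) and all 3 were negative at e11.0 (-0.62, -0.29 and -0.64). The difference at e11.5 minus that at e11.0 was 0.66 ± 0.17 SE on the log2 scale, with a limma adjusted p of 0.105 over 12935 genes. With the replicate number as a block the adjusted p was 0.0132, and without wild type e11.0 replicate 2 the value was 0.85 (adjusted p = 0.0015). In the other 11 fits with 1 library left out Il17rd did not pass, with values of 0.51 to 0.75 and adjusted p of 0.0822 to 0.307.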

How the results depend on the processing

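The number of the 10 genes called in CD1 (1), at e11.0 (3), at e11.5 (5) and for the change between stages (0) was computed again under each alternative. Without the run term it was 0, 0 and 0 in the first 3, and all-gene counts of 795, 1843 and 1455 became 13, 5 and 11. Within the shared run alone it was 1 at e11.0 and 1 at e11.5, with 471, 199 and 483 genes in all. Without the mean-dependent prior it was 0 in CD1, 1 at e11.0 and 2 at e11.5 (574 genes in all at e11.0), and with median-ratio scaling 1 at e11.0. The authors' deposited table calls 2 in CD1, and Fgfr1, Dusp6 and Il17rd at e11.0. At e11.5 it calls Spry1, Spry2, Spry4 and Etv4 but not Fgfr1. In all, 1689, 2895 and 2644 genes pass there. With the replicate block the number of the 10 genes called was 0 in CD1, 4 at e11.0, 5 at e11.5 and 1 for the change between stages, and 3442 genes passed at e11.0. With 1 library left out it was 0 to 2 in CD1, 0 to 5 at e11.0, 1 to 5 at e11.5 and 0 to 5 for the change, with 394 to 1191, 116 to 5273, 433 to 2627 and 10 to 2567 genes in all. Fits without either replicate 3 of a comparison gave the same differences, as set out above. The cause of the shifts in these counts was not tested.

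Signs turned for genes that were not called, with reported values of -0.06 to 0.09. Within the shared run alone these were Etv5 in CD1 (0.00229) and at e11.5 (-0.0466), Spred1 at e11.0 (-0.00259) and Spred2 at e11.5 (-0.00521). With 1 library left out, CD1 values ranged from -0.0489 to 0.0219 for Etv5, -0.0419 to 0.086 for Il17rd and -0.145 to 0.00932 for Spred2. At e11.0 they ranged from -0.0459 to 0.205 for Spry4 and -0.00259 to 0.0396 for Spred1. For the change between stages, whose values per gene were computed again after the data had been seen, Spry2 turned within the shared run alone (0.106) and ranged from -0.115 to 0.05996 with 1 library left out. Spred1 turned with TMM (-0.0249), median-ratio (-0.0464) and upper-quartile scaling (-0.0478) and ranged from -0.0197 to 0.0389. At e11.5 the ranges were -0.0466 to 0.0505 for Etv5, -0.00507 to 0.0535 for Spred1 and -0.00521 to 0.0392 for Spred2. Pseudocounts, the filter on low values and edgeR on recovered reads changed no call of the 10 genes, and the block changed no other call of these genes than those of Spred1, Spry2 and Il17rd.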
